A study of Mus musculus with 8 samples.

Results

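The genes for GABA signalling, through which striatal neurons inhibit their targets and each other, were examined in striata from R6/2 mice and their wild-type controls. The 28 listed genes encode subunits of the GABA-A and GABA-B receptors, the enzymes that make and break down GABA, its transporters, and proteins that hold or move receptors at inhibitory synapses. They were taken by gene symbol from the platform annotation, which names a probe set for 26 of them out of 18193 genes measured, and Gabrr3 and Gabbr2 were not analysed here. Each member is represented by its brightest probe set with a single gene name, and the other probe sets are given where they disagree.

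The study compared 4 R6/2 mice, numbered 64, 65, 70 and 78, with 4 wild-type mice, numbered 42, 48, 54 and 63, each on an array of its own. The R6/2 line models Huntington's disease: its transgene holds exon 1 of human huntingtin with a lengthened CAG repeat, driven by the human promoter. The wild-type mice lack it. All 8 were female, 85 days (12 weeks) old and of a mixed C57Bl/6 / CBA strain. Where the design text counts 5 controls, the fifth is not analysed here.

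GABA opens GABA-A receptors, chloride channels built of 5 subunits, and activates GABA-B receptors, which signal through G proteins. Receptors that contain a gamma subunit mostly lie at synapses, while those with the delta subunit lie outside them and respond to the low GABA concentration around the cell, giving a steady inhibition. The medium spiny neurons that make up most of the striatum use GABA as their own transmitter, so that they express both the enzymes for its synthesis and the receptors for it.

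The deposited values are log2 expression values from the RMA method, and a difference of 1 is a 2-fold change. Array medians lay between 5.08 and 5.13. As a measure of background, 13 probe sets of Y-linked genes, which female mice lack, lay between 2.77 and 5.37, 11 of them at or below 3.71 on every array. The tissue label was borne out by 13 medium spiny neuron markers, with a mean level between 10.83 and 10.87 on the R6/2 arrays and between 11.43 and 11.76 on the wild-type arrays. The 3′ minus the 5′ control signal, a sign of RNA quality, moved with genotype for Gapdh: it was 0.23, 0.34, 0.35 and 0.28 in R6/2 mice 64, 65, 70 and 78, against 1.19, 0.52, 0.50 and 0.41 in wild-type mice 42, 48, 54 and 63. These groups did not overlap, also without wild-type mouse 42, which stood apart. For Actb it was 1.46, 1.38, 1.41 and 1.37 in R6/2 mice, against 2.40, 1.48, 1.58 and 1.39 in wild-type mice, with mouse 42 again apart and the other arrays overlapping. The part of RNA quality in the differences between the groups was not tested. Wild-type mouse 63 stood apart in a list of 7 thalamic markers, with a score of 0.90 against -0.35 to -0.15 on the other arrays, where a score is the mean of the markers minus their wild-type mean. Results are therefore also given without these mice.

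In R6/2 striatum the transcript of the delta subunit, Gabrd, was 2.44-fold lower, that of the gamma 3 subunit, Gabrg3, was 1.31-fold lower, and that of the alpha 5 subunit, Gabra5, was 1.48-fold higher. The other 23 members measured did not pass the test, among them the enzymes for GABA synthesis, the vesicular transporter, the GABA-degrading enzymes and gephyrin. A gene was called where limma's moderated test gave an adjusted p (Benjamini-Hochberg over all genes) under 0.05. By that rule 2 of 26 members were lower, beside 6.19% of all genes, and 1 was higher, beside 9.09% of all genes. Together 3 members (11.5%) were called, beside 15.3% of all genes, and 5 had an unadjusted p under 0.05, beside 29.6% of all genes. The median log2 difference of the members was -0.015 and that of all genes -0.0034, and the median size of the difference was 0.097 against 0.13. Groups did not overlap for 3 members, Gabrd, Gabra5 and Gabarap, beside 19.4% of all genes.

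**Figure D1:**
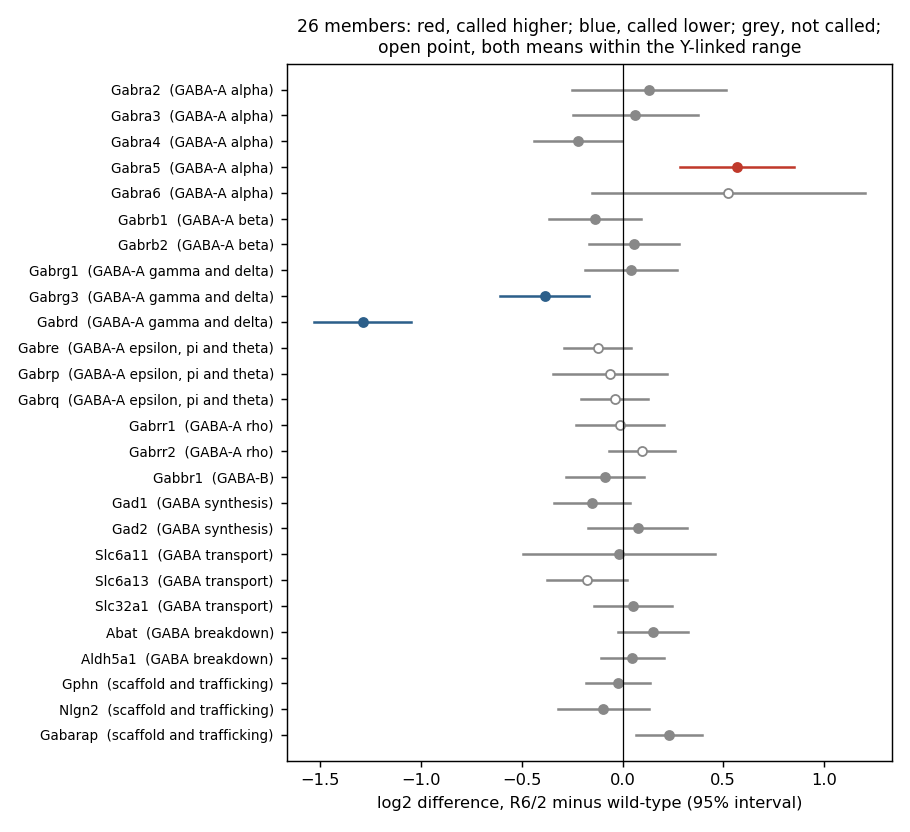
The log2 difference, R6/2 minus wild-type, of the 26 members measured, with its 95% interval, ordered by role. Coloured points passed the test over all genes (blue, lower in R6/2; red, higher), grey points did not, and open points mark members whose means did not exceed the highest Y-linked probe set; Gabrd at -1.29 lies farthest from 0.

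The genes for the alpha 5 and gamma 3 subunits are neighbours on chromosome 7 in RefSeq's annotation, with no other protein-coding gene between them, and they were called in opposite directions. Their promoters are shown for that reason, as the 250 bases before the annotated start, 5′ to 3′ on the minus strand, from RefSeq's GRCm38.p6 (Gabra5 at chr7:57510060-57510309, Gabrg3 at chr7:57387216-57387465). Capitals mark a match to the Sp1 box GGGCGG on either strand.
Gabra5: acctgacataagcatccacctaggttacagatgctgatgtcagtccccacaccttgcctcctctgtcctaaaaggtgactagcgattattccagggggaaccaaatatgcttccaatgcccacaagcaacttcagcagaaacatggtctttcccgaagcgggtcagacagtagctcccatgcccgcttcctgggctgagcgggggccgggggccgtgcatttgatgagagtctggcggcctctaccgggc
Gabrg3: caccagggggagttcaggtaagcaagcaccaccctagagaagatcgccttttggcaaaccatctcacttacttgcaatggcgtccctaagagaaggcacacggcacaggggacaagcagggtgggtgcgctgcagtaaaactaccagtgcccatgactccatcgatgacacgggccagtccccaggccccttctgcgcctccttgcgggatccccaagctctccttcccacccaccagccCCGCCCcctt
The Gabrg3 promoter holds a single Sp1 box, 10 bases before the start and on the other strand, and the Gabra5 promoter holds none. The box is found in 32.7% of 32851 promoters cut in the same way and in 14 of 32 promoters of members, whatever strand it lies on. Neither promoter holds the full cyclic AMP response element TGACGTCA, its core TGACG, whose matches include those of the full element, or the EGR site GCGTGGGCG. Their GC content is 56.4% for Gabra5 and 60.4% for Gabrg3. RefSeq's table gave promoters for 26 of the 28 members.

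Among the alpha subunits, which form the GABA binding site together with the beta subunits, Gabra5 was the one called. The alpha 5 subunit is found mainly in receptors outside synapses and is best known from the hippocampus. Gabra5 had log2 values of 7.37, 7.25, 7.19 and 7.01 in R6/2 mice 64, 65, 70 and 78, against 6.32, 6.78, 6.91 and 6.53 in wild-type mice 42, 48, 54 and 63. Every R6/2 array lay above every wild-type array, the nearest being R6/2 mouse 78 and wild-type mouse 54. The difference was 0.57 ± 0.13 (SE, adjusted p = 0.0154 by limma), with group means of 7.21 ± 0.15 in R6/2 mice and 6.64 ± 0.26 in wild-type mice (SD, n = 4 each). It was 0.46 without wild-type mouse 42 (adjusted p = 0.0274) and 0.53 without wild-type mouse 63 (adjusted p = 0.0377). Leaving out any single array kept the call over all genes, with differences from 0.46 to 0.66. Over all 45037 probe sets Gabra5 was called too (adjusted p = 0.0233 by limma). That call was lost without R6/2 mouse 64, 65 or 70 or wild-type mouse 63 (adjusted p = 0.0536 to 0.0671). Gabra5 has a single named probe set, so no other one could be set beside it.

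Gabra4 encodes the alpha 4 subunit, which joins the delta subunit in receptors of forebrain neurons, and was the brightest of the alpha members. It had values of 9.92, 9.98, 9.67 and 9.85 in R6/2 mice, against 10.31, 10.03, 10.02 and 9.95 in wild-type mice, in the order of mice given above. A single R6/2 array, that of mouse 65, lay above the lowest wild-type array. The difference was -0.22 ± 0.099 (SE, adjusted p = 0.161 by limma), and without wild-type mouse 42 it was -0.15. Its other probe set, at a mean of 9.40, had values of 9.18, 9.32, 9.11 and 9.13 in R6/2 mice, against 9.61, 9.64, 9.65 and 9.52 in wild-type mice. Here the groups did not overlap, and the probe set was called lower over all 45037 probe sets (-0.42 ± 0.074, SE, adjusted p = 0.00743 by limma), also without any single array. With the mean of both probe sets as the value of the gene, Gabra4 was called lower (-0.32, adjusted p = 0.0181 by limma).

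Gabra2 and Gabra3 are further alpha subunits of forebrain receptors at synapses. Gabra2 averaged 8.93 ± 0.19 in R6/2 mice and 8.79 ± 0.39 in wild-type mice (SD, n = 4 each), and its lowest value was that of wild-type mouse 42 (8.22). Its other probe sets with a signal above the Y-linked range differed by -0.21 (adjusted p = 0.192 by limma over all probe sets) and by 0.22 (adjusted p = 0.274). Gabra3 averaged 7.82 ± 0.23 in R6/2 mice and 7.76 ± 0.24 in wild-type mice. A dimmer Gabra3 probe set, at a mean of 4.64 and within the Y-linked range, differed by 0.32 ± 0.090 (SE, adjusted p = 0.0532 by limma), with all 4 R6/2 arrays above all 4 wild-type arrays. Gabra6, the alpha subunit of cerebellar granule cells, was dim: R6/2 mice 64, 65, 70 and 78 had 5.10, 4.02, 4.12 and 3.18, and wild-type values lay between 3.44 and 3.71. These values stood within the Y-linked range, the highest and the lowest of the 8 were both R6/2 arrays, and the difference of 0.53 ± 0.31 did not pass (SE, adjusted p = 0.290 by limma), but was called without R6/2 mouse 78 (0.83, adjusted p = 0.0459). R6/2 mouse 64 also had the highest score of 6 cerebellar granule neuron markers, 0.23, and the part of such cells was not tested.

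Neither beta subunit gene passed the test. Gabrb1 had values of 10.52, 10.17, 10.66 and 10.37 in R6/2 mice, against 10.66, 10.47, 10.53 and 10.60 in wild-type mice. The groups overlapped and the difference was -0.14 (95% interval -0.37 to 0.094). Gabrb2 averaged 9.99 ± 0.19 in R6/2 mice and 9.93 ± 0.094 in wild-type mice (SD, n = 4 each), and all 5 of its probe sets had positive differences, from 0.057 to 0.22, with none called.

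Gabrd, the delta subunit, had the largest difference among the members and ranked 29 of 18193 genes by p-value. Its values were 8.53, 8.43, 8.28 and 8.46 in R6/2 mice, against 9.73, 9.80, 9.91 and 9.41 in wild-type mice. The highest R6/2 value lay well below the lowest wild-type value, that of mouse 63, and the R6/2 mice were close to each other. Group means were 8.42 ± 0.11 in R6/2 mice and 9.71 ± 0.22 in wild-type mice (SD, n = 4 each), a difference of -1.29 ± 0.11 (SE, adjusted p = 0.000122 by limma). It was -1.28 without wild-type mouse 42 and -1.39 without wild-type mouse 63, and the gene was called under all 17 alternatives. The second Gabrd probe set, dim at a mean of 3.49 and within the Y-linked range, differed by -0.067 (adjusted p = 0.623 by limma over all probe sets). Averaging both probe sets of Gabrd gave a difference of -0.68.

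**Figure D2:**
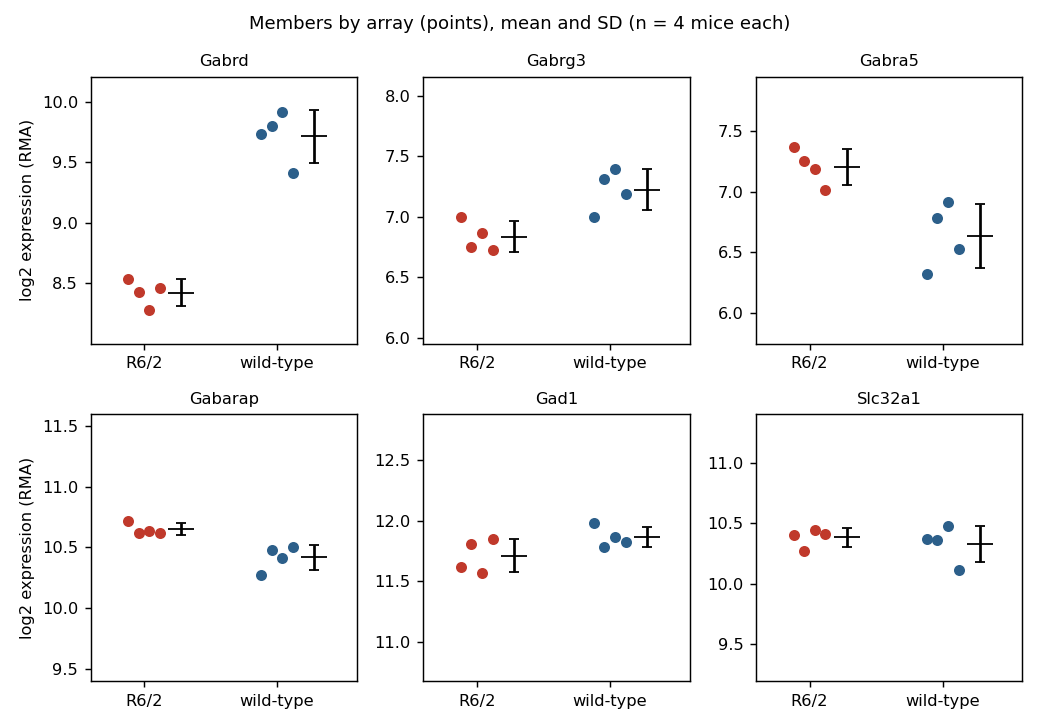
Log2 expression of 6 members on each array (points; red, R6/2; blue, wild-type), with the group mean and SD at the right of each group, on axes that each span 2.2 log2 units. Gabrd and Gabra5 have groups that lie apart, Gabrg3 has groups that touch, and Gad1 and Slc32a1 have groups that overlap.

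Gabrg3, the gamma 3 subunit, had values of 7.003, 6.75, 6.87 and 6.72 in R6/2 mice, against 7.003, 7.31, 7.40 and 7.19 in wild-type mice. The highest R6/2 array, mouse 64, and the lowest wild-type array, mouse 42, had the same value, and the other arrays did not overlap. The difference was -0.39 ± 0.10 (SE, adjusted p = 0.0274 by limma), -0.46 without wild-type mouse 42 (adjusted p = 0.0122) and -0.40 without wild-type mouse 63 (adjusted p = 0.0441). The call was lost without R6/2 mouse 65, 70 or 78 or wild-type mouse 48 or 54 (adjusted p = 0.0611 to 0.0786), which left 1 member called lower. Its other probe sets differed by -0.27, -0.055 and -0.068, none of them called. Those at -0.055 and -0.068 had both group means within the Y-linked range. With the mean of all its probe sets as the value of the gene, these dim ones included, the difference was -0.20. The call was then lost (adjusted p = 0.157 by limma). Set against its neighbour on each array, Gabra5 minus Gabrg3 was 0.37 ± 0.093 in R6/2 mice and -0.59 ± 0.096 in wild-type mice (SD, n = 4 each), a comparison chosen after the values had been seen and therefore given without a test.

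Gabrg1, the gamma 1 subunit, had values of 7.13, 7.25, 7.21 and 7.28 in R6/2 mice, against 7.03, 6.99, 7.24 and 7.45 in wild-type mice, and the groups overlapped (difference 0.041, adjusted p = 0.830 by limma). Its dimmer probe set had 5.00, 5.22, 5.08 and 5.25 in R6/2 mice, against 4.74, 4.74, 4.78 and 4.81 in wild-type mice. Those groups did not overlap, and the probe set was called higher (0.37 ± 0.077, SE, adjusted p = 0.0148 by limma over all probe sets), although all these values lie within the Y-linked range.

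The remaining GABA-A subunits were near background in striatum. Gabrp, the pi subunit known from tissues outside the brain, was the brightest of the epsilon, pi and theta group, with 4.47, 4.38, 5.04 and 4.63 in R6/2 mice, against 4.65, 4.72, 4.65 and 4.75 in wild-type mice. Gabre and Gabrq had means of 3.51 and 3.32 in R6/2 mice, against 3.63 and 3.36 in wild-type mice. Gabrr1, a rho subunit best known from the retina, had 4.41, 4.56, 4.63 and 4.20 in R6/2 mice, against 4.43, 4.55, 4.50 and 4.37 in wild-type mice, and Gabrr2 had means of 4.06 in R6/2 and 3.97 in wild-type mice. The groups of these 5 genes overlapped, and their differences lay between -0.12 and 0.098. Both means of each lay within the Y-linked range, where a small difference need not bound a change of the transcript.

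Gabbr1 encodes the GABA-B subunit that binds GABA. Its brightest probe set had 11.21, 11.06, 11.24 and 11.19 in R6/2 mice, against 11.18, 11.37, 11.40 and 11.10 in wild-type mice. These groups overlapped, with a difference of -0.087 ± 0.087 (SE, adjusted p = 0.557 by limma). A second bright probe set, at a mean of 10.57, had 10.74, 10.72, 10.67 and 10.82 in R6/2 mice, against 10.58, 10.47, 10.31 and 10.28 in wild-type mice. All R6/2 arrays lay above all wild-type arrays there, and it was called higher (0.33 ± 0.085, SE, adjusted p = 0.0358 by limma over all probe sets). That call held without wild-type mouse 42 (0.39, adjusted p = 0.0178) and was lost without any of the other 7 arrays (adjusted p = 0.0658 to 0.0940). Its further probe sets differed by 0.069 and -0.18 and were not called. No test of the difference between the probe sets of Gabbr1 is given, since the second one was singled out by its call.

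**Figure D3:**
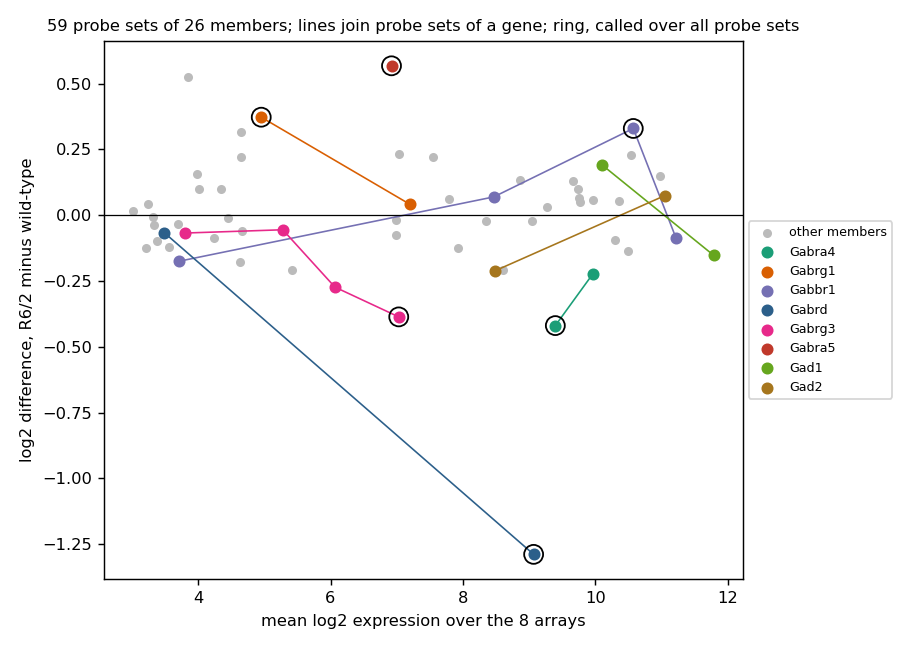
The log2 difference, R6/2 minus wild-type, of 59 probe sets of the 26 members against their mean log2 expression. Lines join the probe sets of each of the genes shown in colour, grey points are the other members, rings mark the 6 probe sets called over all probe sets, and the ringed points of Gabbr1 and Gabrg1 lie above the other probe sets of their genes.

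Opposite signs were common, mostly without a call: 18 members had more than 1 probe set, and 12 of their 33 other probe sets had the sign opposite to that of the brightest one. Above the Y-linked range it was 8 of 17. Of the other probe sets 3 were called, those of Gabbr1, Gabrg1 and Gabra4, and 1 of them, that of Gabbr1, in the opposite direction.

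GABA synthesis depends on the glutamate decarboxylases Gad1 and Gad2. Gad1, the brightest of all members, had 11.62, 11.81, 11.57 and 11.85 in R6/2 mice, against 11.98, 11.78, 11.87 and 11.83 in wild-type mice. Its groups overlapped, and the difference was -0.15 (95% interval -0.34 to 0.037, adjusted p = 0.270 by limma). The other Gad1 probe set differed by 0.19 (adjusted p = 0.349 over all probe sets), with its lowest value in wild-type mouse 42 (9.64). Gad2 averaged 11.09 ± 0.10 in R6/2 mice and 11.01 ± 0.22 in wild-type mice (SD, n = 4 each), a difference of 0.075 (95% interval -0.17 to 0.32), and its dimmer probe set differed by -0.21.

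Slc32a1, the transporter that loads GABA into synaptic vesicles, had 10.40, 10.27, 10.44 and 10.41 in R6/2 mice, against 10.37, 10.36, 10.47 and 10.12 in wild-type mice. The groups overlapped, with a difference of 0.053 (95% interval -0.14 to 0.25). Slc6a11, the GABA uptake transporter of astrocytes, varied widely within both groups, from 6.54 to 7.31 in R6/2 mice and from 6.51 to 7.58 in wild-type mice. Its highest value was that of wild-type mouse 63, the array with the high thalamic marker score. The difference of Slc6a11 was -0.018 ± 0.22 (SE), and 0.17 without that mouse. Slc6a13, a GABA transporter of the meninges, was dim, at 4.55 ± 0.14 in R6/2 mice and 4.73 ± 0.11 in wild-type mice (SD, n = 4 each).

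The enzymes that break down GABA were bright and did not pass the test. Abat, the GABA transaminase, had 10.98, 11.03, 11.03 and 11.15 in R6/2 mice, against 10.76, 10.91, 11.04 and 10.88 in wild-type mice. Only wild-type mouse 54 reached the R6/2 range, and the difference was 0.15 (95% interval -0.024 to 0.32, adjusted p = 0.237 by limma). Aldh5a1, the succinic semialdehyde dehydrogenase that acts after it, averaged 9.80 ± 0.057 in R6/2 mice and 9.75 ± 0.072 in wild-type mice (SD, n = 4 each).

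Of the scaffold and trafficking members, Gabarap, which binds gamma subunits and belongs to the ATG8 family of autophagy proteins, had 10.72, 10.62, 10.64 and 10.62 in R6/2 mice, against 10.27, 10.48, 10.41 and 10.51 in wild-type mice. The groups did not overlap. The difference was 0.23 ± 0.074 (SE), with an adjusted p of 0.0615 by limma that fell just outside the threshold. It was 0.18 without wild-type mouse 42 (adjusted p = 0.111). Gphn, encoding gephyrin, the scaffold under glycine and GABA-A receptors, averaged 9.03 ± 0.037 in R6/2 mice and 9.06 ± 0.096 in wild-type mice (SD, n = 4 each), a difference of -0.023 (95% interval -0.18 to 0.14). Nlgn2, the adhesion protein neuroligin 2 of inhibitory synapses, averaged 10.25 ± 0.073 in R6/2 mice and 10.35 ± 0.20 in wild-type mice. Of the 16 members that were not called and lay above the Y-linked range, 15 had a 95% interval within 0.5 log2 units of 0 in both directions, the exception being Gabra2.

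A list of 49 further genes of the GABA synapse, 46 of them measured, was examined beside the members. Of these, 6 fell and 4 rose, beside 6.19% and 9.09% of all genes, and the other 36 did not pass the test. The median log2 difference was -0.021.

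Among partners that place receptors in the membrane, 2 of 21 fell and 3 rose. Insyn2b, of a family of inhibitory synapse proteins, had 5.64, 5.72, 6.03 and 5.98 in R6/2 mice, against 4.27, 4.12, 4.72 and 4.44 in wild-type mice. The groups lay far apart, at a difference of 1.45 ± 0.13 (SE, adjusted p = 0.000198 by limma), and the wild-type values stood within the Y-linked range. Shisa7, an auxiliary protein of GABA-A receptors, had 7.41, 7.35, 7.18 and 7.28 in R6/2 mice, against 8.07, 7.85, 7.72 and 7.63 in wild-type mice, a difference of -0.51 ± 0.10 (SE, adjusted p = 0.00823 by limma). Zdhhc3, which palmitoylates gamma subunits, rose by 0.34 (adjusted p = 0.0181), with an adjusted p of 0.0502 when R6/2 mouse 64 was left out. Its other probe sets differed by -0.14, 0.067 and -0.067, none of them called.

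Gabarapl2, a relative of Gabarap, rose by 0.37 (adjusted p = 0.0477 by limma, and 0.0657 over all probe sets). The call over all genes was lost without any R6/2 mouse or without wild-type mouse 42 or 48 (adjusted p = 0.0550 to 0.123). Trak1, an adaptor for transport along microtubules, fell by 0.28 in its brightest probe set (adjusted p = 0.0371, and 0.0507 over all probe sets). That call was lost without any R6/2 mouse or without wild-type mouse 42 or 48 (adjusted p = 0.0533 to 0.103), while other Trak1 probe sets were called higher, by 0.54 and 0.53 (adjusted p = 0.0232 and 0.0492 over all probe sets). Hap1, a protein that binds huntingtin and carries GABA-A receptors, differed by 0.30 ± 0.094 (SE, adjusted p = 0.0546 by limma).

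The chloride gradient sets the direction of GABA currents. Of 8 genes in this group 2 fell: Car7, a carbonic anhydrase that supplies the bicarbonate which also passes through GABA-A receptors, and the chloride channel gene Clcn2. Car7 had 7.38, 7.39, 7.18 and 6.77 in R6/2 mice, against 8.18, 8.18, 8.29 and 7.85 in wild-type mice. The groups did not overlap, and the difference was -0.94 ± 0.14 (SE, adjusted p = 0.00236 by limma). Clcn2 fell by 0.48 (adjusted p = 0.00954). Slc12a5, the neuronal potassium-chloride cotransporter, averaged 12.19 ± 0.060 in R6/2 mice and 12.18 ± 0.10 in wild-type mice (SD, n = 4 each).

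In the supply of glutamate and glutamine, from which GABA is made, 2 of 11 genes fell and 1 rose. Slc1a3, the astrocytic glutamate transporter GLAST, had 9.68, 9.80, 9.69 and 9.79 in R6/2 mice, against 10.04, 10.25, 10.04 and 10.17 in wild-type mice, a difference of -0.38 ± 0.076 (SE, adjusted p = 0.00853 by limma). Slc1a2, the other main astrocytic glutamate transporter, fell by 0.54 (adjusted p = 0.0437), a call lost without any single array except wild-type mouse 42 (adjusted p = 0.0503 to 0.119). Over all probe sets its adjusted p was 0.0613, while a dimmer Slc1a2 probe set was called lower (-0.64, adjusted p = 0.0023 by limma). Glul was not called (-0.26, adjusted p = 0.0764), but its dimmer probe set was called lower over all probe sets (-0.48, adjusted p = 0.00637 by limma). Got1, the cytosolic aspartate aminotransferase, rose by 0.47 (adjusted p = 0.0233), a call lost without R6/2 mouse 64, 70 or 78 or wild-type mouse 48 (adjusted p = 0.0556 to 0.0659). Of 6 partners and effectors of GABA-B receptors none was called over all genes by limma, and 1, the potassium channel gene Kcnj6, with both means within the Y-linked range, had an unadjusted p under 0.05 (-0.27, adjusted p = 0.0545). The brightest were Kctd8 (difference 0.11 ± 0.091, SE) and Kcnj9, which spread from 5.31 to 7.93 in R6/2 mice and from 5.11 to 8.14 in wild-type mice.

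**Figure D4:**
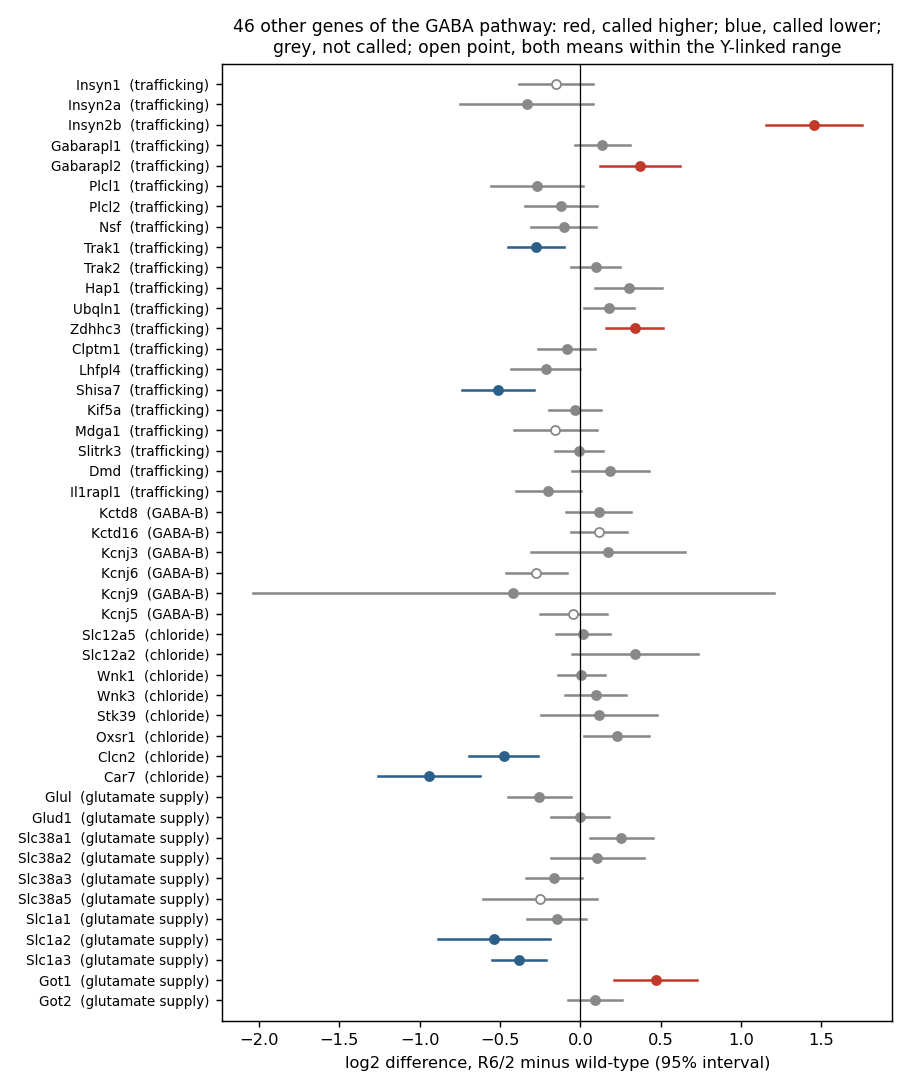
The log2 difference, R6/2 minus wild-type, of 46 further genes of the GABA pathway with its 95% interval, in 4 groups by role. Coloured points passed the test over all genes (blue, lower in R6/2; red, higher); Insyn2b at 1.45 and Car7 at -0.94 lie farthest from 0 among the called genes.

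Several marker lists moved with the groups. Of the 13 medium spiny neuron markers, 11 fell, with a median of -0.90, and the list score was -0.80 ± 0.017 in R6/2 mice and 0 ± 0.15 in wild-type mice (SD, n = 4 each). Gabrd fell beside this list. The brightest probe sets of Gad1, Gad2 and Slc32a1, which the same neurons express, had intervals between -0.34 and 0.32. Other probe sets of these genes with a group mean above the Y-linked range had wider intervals. These reached up to 0.45 for Gad1, and down to -0.54 for Gad2 and -0.55 for Slc32a1. In whole tissue, fewer cells of a type and less RNA per cell cannot be told apart. Of a list of 12 interneuron markers 4 fell, with a score of -0.49 ± 0.22 in R6/2 mice and 0 ± 0.21 in wild-type mice. The list is headed GABA interneuron, but it holds Chat and Slc5a7, which mark cholinergic interneurons. Mean levels of this list were from 6.04 to 6.57 in R6/2 mice and from 6.53 to 7.04 in wild-type mice. Chat, Slc5a7, Vip, Th and Htr3a had means over all arrays within the Y-linked range, and Vip was among the 4 that fell. Cck, which was not called (-1.60), spread from 5.17 to 8.12 in R6/2 mice and from 6.56 to 8.77 in wild-type mice. Its lowest array in each group, R6/2 mouse 65 and wild-type mouse 54, was also the lowest for the cortical marker Slc17a7 (5.08 and 5.80). Of the astrocyte markers 5 of 11 fell, and their score was -0.28 ± 0.068 in R6/2 mice and 0 ± 0.14 in wild-type mice, beside the falls of Slc1a2 and Slc1a3, both of which are also on the astrocyte list. Of 8 endothelial and mural markers 3 fell, namely Cldn5 (-0.84, adjusted p = 0.00374 by limma), Flt1 (-0.39) and Slco1a4 (-0.39). Their score was -0.20 ± 0.083 in R6/2 mice and 0 ± 0.075 in wild-type mice (SD, n = 4 each), with mean levels from 7.18 to 7.37 in R6/2 mice and from 7.36 to 7.53 in wild-type mice. Of 8 oligodendrocyte markers Mobp fell (-0.38), and of 10 ependyma and choroid plexus markers Ccdc153 fell (-0.57) and Enkur, with both means within the Y-linked range, rose (0.85). No marker of thalamic or cerebellar granule neurons, oligodendrocyte progenitors, microglia or meninges was called by limma. An unadjusted p under 0.05 was found for 1 of 5 progenitor, 2 of 10 microglia and 2 of 9 meninges markers, beside 29.6% of all genes. The part of these cell types in the results was not tested.

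The score of 14 cortical projection neuron markers was -0.70 ± 0.45 in R6/2 mice and 0 ± 0.45 in wild-type mice (SD, n = 4 each), with overlapping groups and mean levels from 5.58 to 6.60 in R6/2 mice and from 6.06 to 7.01 in wild-type mice. Of these markers, 3 of 14 fell, and Neurod1, Neurod6, Tbr1, Emx1 and Fezf2 had means over all arrays within the Y-linked range. With this score as a covariate, Gabrd differed by -1.39 ± 0.15 (SE, adjusted p = 0.00152 by limma) and was the member still called. Gabra5 then differed by 0.47 ± 0.17 (adjusted p = 0.138) and Gabrg3 by -0.39 ± 0.14 (adjusted p = 0.125). Gabra3, which was not called in either fit, differed by 0.40 (95% interval 0.15 to 0.65, adjusted p = 0.0620), against 0.062 without the covariate, and the dim Gabra6 by 1.09 (adjusted p = 0.0839), against 0.53. Of the further genes of the pathway, Car7 (-0.96, adjusted p = 0.0247) and Insyn2b (1.26, adjusted p = 0.00433) were still called.

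**Figure D5:**
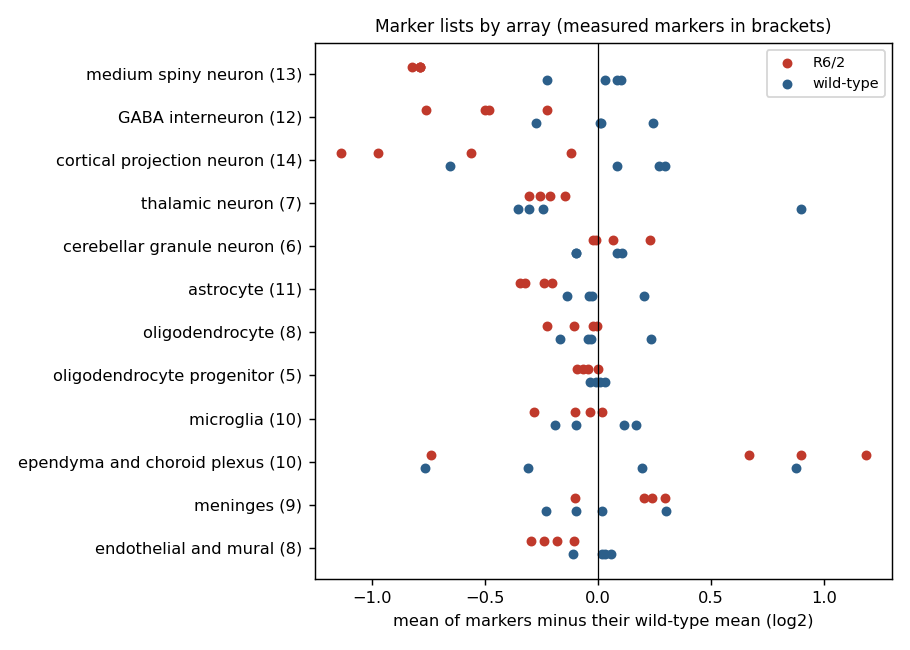
Scores of 12 marker lists on each array (red, R6/2; blue, wild-type), as the mean over the list of the log2 value minus the wild-type mean of each gene. The medium spiny neuron scores of the R6/2 mice lie together near -0.80, below all wild-type mice, and the cortical scores spread widely in both groups.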

How the data were processed

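Affymetrix arrays were hybridised with striatal RNA of 4 R6/2 mice and 4 wild-type mice. The submitters' processing notes name RMA and affy as the tools the authors used, and the deposited unit is log2 expression. Versions and the set of arrays normalized together are not given in the sources used here. They were not normalized again. Of 45101 probe sets, 64 were controls, and 34945 had a single gene symbol, updated through RefSeq by Entrez ID (34741 matched). A gene was represented by its brightest such probe set over the 8 arrays (18193 genes).

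R6/2 and wild-type mice were compared with limma 3.58.1 in R 4.3.3 (lmFit and eBayes), with Benjamini-Hochberg adjustment over all genes, or over all 45037 probe sets for single probe sets, and a call at an adjusted p under 0.05. The p-values test a difference between the groups against the spread between these mice, which limma moderates over all genes. Precision is limited by the number of arrays. The members and lists were chosen with earlier results of these data known. All members are named, as are the called genes of the further pathway list or else the brightest of a group. Values are given by array for called members, for members with another called probe set or an unadjusted p under 0.05, and for the brightest of each role. The alternatives tried were other normalizations between arrays, leaving out the dimmest 40% of genes, other choices of probe set, other moderation of variances, array weights, a cortical covariate and leaving out each array. Data were simulated from the levels and variances of these 18193 genes (R6/2 against wild-type). There limma called 56.2% of genes changed by 0.5, 93.5% of those changed by 1 and 100% of those changed by 2 log2 units. A far smaller share of genes was changed there than the 15.3% called in the real data. The adjusted threshold depends on that share, so these percentages are not the sensitivity of the real comparison. Python 3.11.15 with matplotlib 3.10.9 drew the figures.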

Additional observations from a re-analysis of the deposited data

Results flagged for a closer look

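Within the groups of 4 arrays, the array farthest from the others stood apart by Dixon's 95% critical value in 6 of the 52 groups formed by 26 members and 2 genotypes, and chance gives about 1 in 20. In R6/2 mice, mouse 65 was low for Slc6a13 (4.35, the others from 4.60 to 4.64) and for Nlgn2 (10.14, the others from 10.28 to 10.29). In wild-type mice, mouse 42 was low for Gabra2 (8.22, the others from 8.91 to 9.04), mouse 54 was high for the dim gene Gabrr2 (4.02, the others from 3.94 to 3.95), and mouse 63 was low for Aldh5a1 (9.64, the others from 9.78 to 9.79) and for Gphn (8.91, the others from 9.09 to 9.12). None of these genes was called.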

How the results depend on the processing

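The genes called numbered 2781, against 1399 without moderation of variances, 1256 with the cortical covariate and 1679 to 2545 without 1 array. The members called lower numbered 2, against 1 without moderation, 1 with the covariate and 1 to 2 without 1 array. With the mean of all probe sets it was again 2, but Gabrg3 was lost (-0.20, adjusted p = 0.157 by limma) and Gabra4 gained (-0.32, adjusted p = 0.0181). The members called higher numbered 1, against 2 after quantile normalization, 2 after median centring, 2 without the dimmest 40% of genes, 2 with the mean of all probe sets, 2 with an intensity trend and 2 with array weights, in each of which Gabarap joined Gabra5, against 0 without moderation, 0 with the covariate and 1 to 2 without 1 array. The further pathway genes called lower numbered 6, against 1 with the covariate and 4 to 7 without 1 array, and those called higher 4, against 2 without moderation, 1 with the covariate and 1 to 5 without 1 array. Of the members' 59 probe sets 6 were called, against 3 to 6 without 1 array, an alternative chosen after the data had been seen. Signs were opposite with the covariate for Gabra2 (-0.11), Gabrb1 (0.019), Gabrg1 (-0.017), Gabrq (0.0087) and Gad2 (-0.14), and for Gabrr1 after quantile normalization (0.013) and median centring (0.00067). With the mean of all probe sets they were opposite for Gabbr1 (0.034), Gad1 (0.020), Gad2 (-0.068), Slc32a1 (-0.035), Gphn (0.062) and Trak1 (0.28, adjusted p = 0.0361 by limma). Without 1 array the difference took both signs for Gabra2 (-0.060 to 0.22), Gabra3 (-0.052 to 0.12), Gabrb2 (-0.013 to 0.14), Gabrg1 (-0.020 to 0.13), Gabrp (-0.20 to 0.021), Gabrr1 (-0.073 to 0.071), Slc6a11 (-0.18 to 0.17) and Slc32a1 (-0.018 to 0.10). The covariate fit has 1 residual degree of freedom fewer. The cause of the other shifts was not tested. No paired analysis was possible because the labels do not pair any R6/2 mouse with a wild-type mouse. Signal near background limits what can be said of the 7 members within the Y-linked range.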

Other observations

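Over the 36 probe sets of members above the Y-linked range, wild-type mouse 42 had the lowest value of the 8 arrays in 13, against 1 to 6 on each other array. Such probe sets included those of Gabra2 at 8.22, of Gabra5 at 6.32 and of Gabarap at 10.27, dimmer ones of Gad1 (9.64), Gphn (7.85) and Gabbr1 (7.82). The same mouse had the highest 3′ minus 5′ control signals, and their part in these values was not tested.

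Several subunit genes lie close together in RefSeq's annotation. On chromosome 5 lie Gabrg1, Gabra2, Gabra4 and Gabrb1, with differences of 0.041, 0.13, -0.22 and -0.14 and no call, and on the X chromosome lie Gabre, Gabra3 and Gabrq, with differences of -0.12, 0.062 and -0.038 and no call.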
